A study of Saccharomyces cerevisiae and Saccharomyces paradoxus with 173 samples.

Results

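The genes described here build the mitotic spindle of budding yeast, the spindle poles that nucleate it and the kinetochores that tie chromosomes to it. They were chosen by name as 37 standard genes, of which 35 matched an identifier among the 6172 genes of the deposited table. SPC29 and NNF1 were not analysed here. The 35 measured genes comprised 4 kinesin motors, 5 microtubule-associated proteins, 3 tubulins, 6 genes of the gamma-tubulin complex and spindle pole body, 5 genes of the NDC80 complex with SPC105, 3 of the MIND complex, 6 of the inner kinetochore and COMA complex, and 3 of the DASH complex.

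Tubulin dimers of alpha and beta subunits polymerise into microtubules, which grow from gamma-tubulin complexes docked on both faces of the spindle pole body, a structure embedded in the nuclear envelope of yeast. Yeast duplicates its pole around the start of S phase, separates the poles into a short spindle soon after, and elongates that spindle at anaphase. Motors and crosslinkers slide and bundle the microtubules, while the kinetochore, stacked in layers on the centromeric nucleosome, holds the end of a microtubule through the NDC80 and DASH complexes.

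Each of 10 natural strains was represented by 1 culture, arrested in late G1 with 4 μM alpha factor, washed free of the pheromone and followed at 18 °C in synthetic dextrose minimal medium at up to 18 times from 0 to 345 min. All 10 cultures received the same arrest and release, with no untreated culture, and cells were judged synchronised by microscopy. The strains labelled S. cerevisiae were YPS183, YPS2055, YPS2060, YPS2066, YPS2067, YPS2073, YPS2079, YPS3060 and YPS3137, and YPS3395 was labelled S. paradoxus. Each sample was compared on 2-colour spotted oligonucleotide arrays with RNA of unsynchronised YPS183 grown in YPD at 30 °C, so the reference differed from every sample in medium, temperature and synchrony. The a-cell genes MFA1, MFA2, STE2, BAR1 and AGA2 were in the table, and at 0 min their median values over strains ran from -0.96 to 1.35, above their medians over all samples, which ran from -1.97 to -0.65. A ratio to a reference cannot show that a marker is absent.

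Values are deposited log ratios of sample over reference, read here as log2. The base is not stated and the direction is the likely one, so every size below holds only if the base is 2. Ratios show how a gene moves across samples and do not rank genes against each other. There were 15 samples of YPS2060, 16 each of YPS2067 and YPS3137, and 18 of every other strain. Arrays printed in 2005 or 2006 entered 40 samples: 17 of YPS2073, 9 each of YPS3060 and YPS3137, and 5 of YPS183. In YPS3060 and YPS3137 the older prints fell only on alternate times, 0, 48, 87, 135, 176, 218, 251, 284 and 325 min, called set A here, while the times between them are set B. In YPS3137 the 2 sets stood apart for several of these genes, and results that rest on that strain are given by set. Cultures were single, so within a strain the only error was the scatter of time points around a smooth curve. RNA per cell, the share of cells in a phase and the change of a transcript cannot be told apart in such bulk samples.

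**Figure D1:**
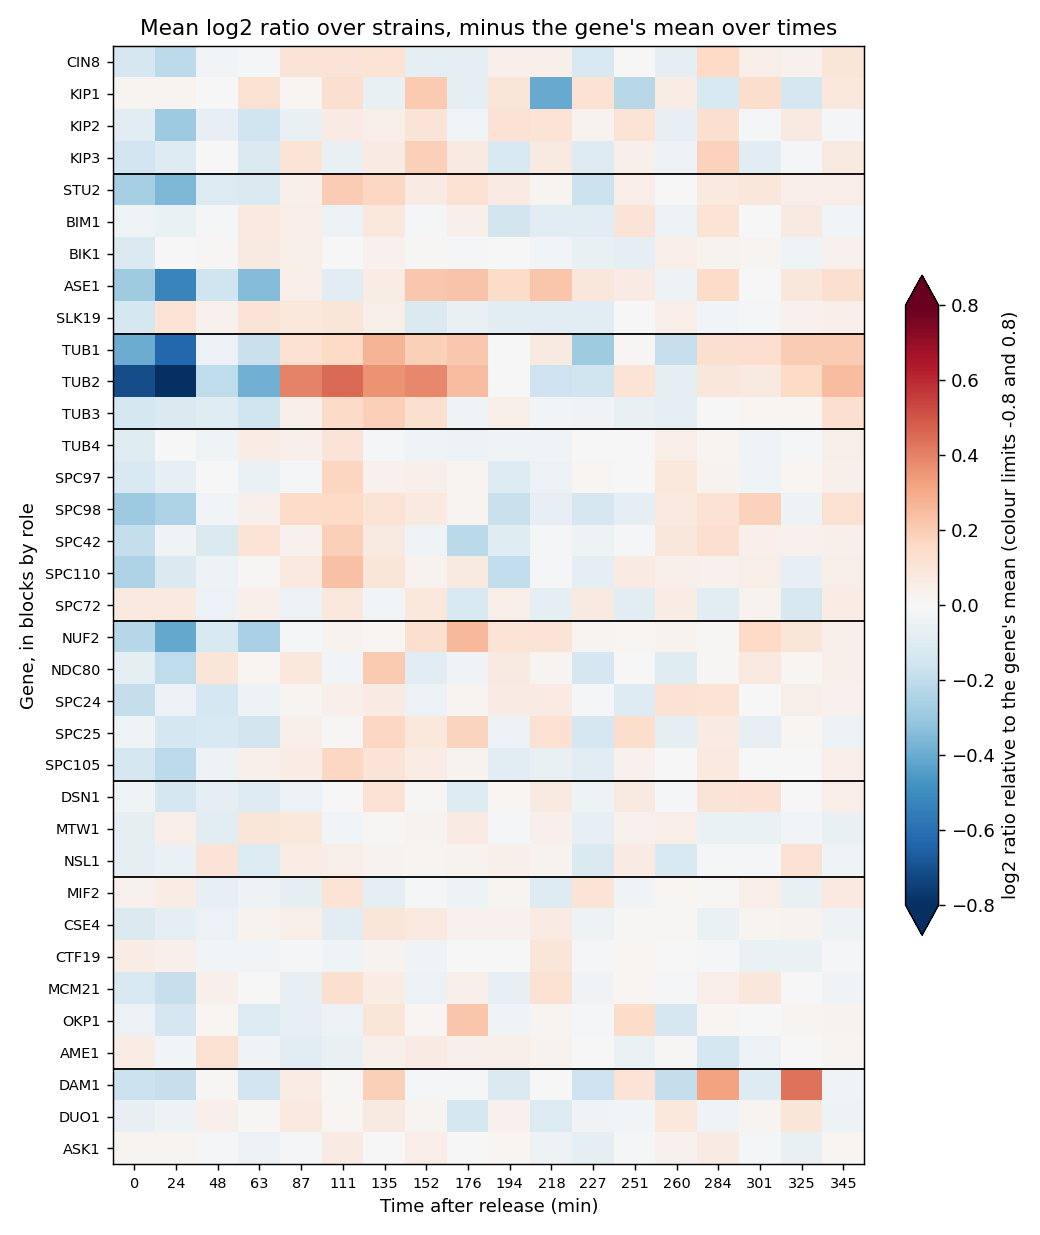
Mean log2 ratio over the strains sampled at each time (columns, min after release), minus each gene's mean over times, for the 35 genes in blocks by role. TUB2 and TUB1 are lowest at 0 and 24 min and higher from 87 min, whereas rows of the MIND, inner kinetochore and COMA blocks stay close to their own mean; the dark DAM1 cells at 284 and 325 min rest on YPS3137.

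The first question was when after release these genes rise. The mean over 48, 63, 87 and 111 min, the S phase window, was compared within each strain with the mean over 0 and 24 min, the early window. Of the 35 genes, 6 rose and none fell: TUB2, TUB1, SPC98, STU2, SPC110 and CIN8 (17.1% of the genes). Over all 6172 genes, 191 rose (3.09%) and 199 fell (3.22%). The median change was 0.10 among the 35 genes and -0.009 among all genes. The test was limma on 1 difference per strain with Benjamini-Hochberg adjustment over all genes, past at an adjusted p below 0.05. With the 2 sampling sets tested apart, fewer passed: TUB2 and SPC98 in set A, TUB2 alone in set B, where only 13 genes of the whole table rose.

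TUB2, the single beta-tubulin gene of yeast, had the largest change of the 35. In the early window its strain means ran from a lowest of -1.46 in YPS2067 through a median of -0.91 to a highest of -0.26 in YPS2073. In the S phase window they ran from -0.87 in YPS2067 through -0.02 to 0.53 in YPS3395. The ranges overlapped, but within every strain the S phase value was the higher one. The change was 0.79 ± 0.11 (SE, n = 10 strains; adjusted p = 0.00197 by limma), from 0.28 in YPS2073 to 1.43 in YPS3395.

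TUB1 encodes the major alpha-tubulin. Its early values ran from -1.39 in YPS3395 through -0.997 to -0.57 in YPS3060, and its S phase values from -0.98 in YPS2067 through -0.45 to -0.17 in YPS3395. It rose by 0.50 ± 0.10 (SE, n = 10; adjusted p = 0.0132 by limma), and all 10 strains were higher. The smallest rise was 0.08, in YPS2067, for which no sample at 87 or 111 min entered the window. TUB3, the minor alpha-tubulin gene, had a mean difference of 0.10 ± 0.06 (SE; adjusted p = 0.322) and was higher in 7 of 10 strains. The change of TUB1 exceeded that of TUB3 in 9 of 10 strains, by a mean of 0.40 ± 0.38 (SD); this pair was singled out after its values were seen and the difference was not tested. The alpha-tubulin genes are close in sequence, and cross-hybridisation between their probes was not tested.

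**Figure D2:**
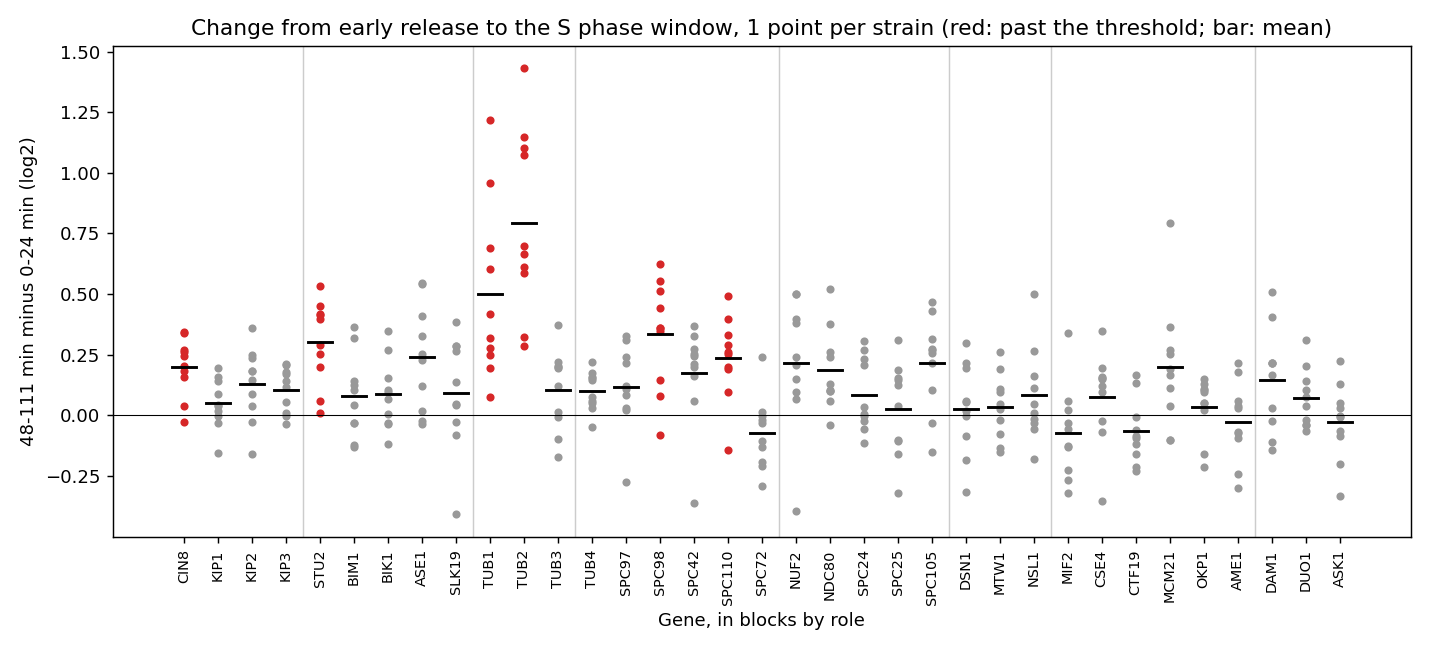
Change in log2 ratio from the early window (0 and 24 min) to the S phase window (48 to 111 min), with 1 point per strain and a bar at the mean of 10 strains, for the 35 genes in blocks by role. Red points mark the 6 genes past the threshold; all 10 points of TUB1, TUB2 and STU2 lie above 0, and 9 of 10 do for SPC98, SPC110 and CIN8.

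In the gamma-tubulin and pole group, 2 of 6 genes rose. SPC98, a subunit that binds gamma-tubulin directly, had early values from -0.45 through -0.19 to 0.02 and S phase values from -0.21 through 0.13 to 0.50. Its rise was 0.33 ± 0.07 (SE; adjusted p = 0.0132 by limma, n = 10), with YPS3395 the 1 strain that was lower. SPC110, which anchors gamma-tubulin complexes to the nuclear face of the pole, rose by 0.24 ± 0.06 (SE; adjusted p = 0.0299 by limma, n = 10) and was higher in 9 of 10 strains. This call was lost when any 1 of 6 strains was left out (YPS183, YPS2055, YPS2060, YPS2067, YPS2079 or YPS3060), with adjusted p up to 0.0788. SPC97, the partner of SPC98 in the gamma-tubulin complex, had a mean difference of 0.12 (adjusted p = 0.273), and SPC98 exceeded it in 9 of 10 strains by a mean of 0.22 ± 0.20 (SD), a pair also singled out after its values were seen. SPC42, the core protein of the pole's central plaque, had a mean difference of 0.17 (adjusted p = 0.136), TUB4, gamma-tubulin itself, one of 0.10 (adjusted p = 0.167), and SPC72, the receptor on the cytoplasmic face, one of -0.07 (adjusted p = 0.473).

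Of the microtubule-associated proteins, 1 of 5 rose. STU2 speeds growth at microtubule plus ends. Its early values ran from -0.46 through -0.30 to -0.11, and its S phase values from -0.25 through -0.03 to 0.22, so that the strains overlapped although each was higher in S phase. The rise was 0.30 ± 0.06 (SE, n = 10; adjusted p = 0.00906 by limma). ASE1, which crosslinks antiparallel microtubules in the spindle midzone, had a mean difference of 0.24 ± 0.07 (SE; adjusted p = 0.054), just outside the threshold. The plus-end binding proteins BIM1 and BIK1 had mean differences of 0.08 and 0.09, and SLK19, a kinetochore and midzone protein, one of 0.09, all with adjusted p of 0.378 or more.

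Among the motors, 1 of 4 rose. CIN8, a bipolar kinesin that pushes the poles apart, went from early values between -0.39 and 0.11 to S phase values between -0.18 and 0.27, and YPS2073 was the lowest strain in both windows. Its rise was 0.20 ± 0.05 (SE, n = 10; adjusted p = 0.0239 by limma), in 9 of 10 strains. Without YPS2055, YPS2060, YPS2079 or YPS3060 its adjusted p ran from 0.0554 to 0.0674. KIP1, the second bipolar kinesin, had a mean difference of 0.05 (adjusted p = 0.583), 0.15 ± 0.16 (SD) less than CIN8 on average and less in 8 of 10 strains, again a pair picked after its values were seen. KIP2, a motor that carries cargo to plus ends, and KIP3, which shortens microtubules, had mean differences of 0.13 and 0.10 (adjusted p = 0.175 and 0.171).

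None of the kinetochore genes among the 35 passed in this comparison: 0 of 5 in the NDC80 group, 0 of 3 in MIND, 0 of 6 in the inner kinetochore and COMA group and 0 of 3 in DASH. Nearest to the threshold were SPC105, the scaffold for checkpoint proteins, with 0.22 ± 0.06 (SE; adjusted p = 0.0565), and NDC80, with 0.19 ± 0.06 (SE; adjusted p = 0.0671). NUF2, the partner of NDC80 in the microtubule-binding head, had a mean difference of 0.21 (adjusted p = 0.131), with 9 strains between 0.07 and 0.50 and YPS2066 at -0.40. Without YPS2066, NUF2 rose by 0.28 (adjusted p = 0.0226 by limma over 9 strains), and without YPS3395, SPC105 and ASE1 passed, at adjusted p = 0.0407 and 0.0404. MCM21, of the COMA complex, had a mean difference of 0.20 (adjusted p = 0.152). Median changes were 0.19 in the NDC80 group, 0.07 in DASH, 0.03 in MIND and 0.004 in the inner kinetochore and COMA group. Without YPS2073, YPS3060 and YPS3137, the strains with 9 or more samples that include older prints, 5 genes rose: TUB2, TUB1, STU2, SPC42 and SPC105. CIN8, SPC98 and SPC110 then did not pass, with changes of 0.18, 0.30 and 0.26.

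Other genes of the same machinery were taken from a list of 55, of which 50 were measured: 20 spindle and pole genes and 30 kinetochore and checkpoint genes. Of these 50, 2 rose from early release to S phase (4%) and none fell, against 3.09% and 3.22% of all genes. ESP1, the separase that cleaves cohesin at anaphase and binds the spindle, rose by 0.37 ± 0.07 (SE; adjusted p = 0.00906 by limma, n = 10). CTF3, an inner kinetochore gene, rose by 0.22 ± 0.06 (SE; adjusted p = 0.0317), and both genes were higher in 10 of 10 strains.

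The next comparison set the mean over 176, 194, 218 and 227 min, the mitotic window, against the S phase window. It shares the S phase samples with the first. Windows are fixed times named for phases, and need not hold the same phase in every strain. In curves fitted to each strain, described below, the histone gene HTA1 peaked between 87 and 325 min. The mitotic cyclin gene CLB2 peaked between 135 and 345 min. None of the 35 genes passed in either direction by limma, where 2.48% of all genes were higher (153 genes) and 2.8% lower. At an unadjusted p under 0.05, 2 of the 35 were higher (ASE1 and NUF2) and 4 lower (SPC42, SLK19, SPC98 and DUO1), or 5.71% and 11.4%, against 11.5% and 10.6% of all genes. None of the 50 related genes passed, and 1 was higher and 5 lower at that unadjusted level.

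ASE1 and NUF2 were looked at because they lay nearest, after their values were seen. ASE1 stood between -0.45 and 0.10 in S phase, with a median of -0.06, and between -0.17 and 0.70 in the mitotic window, with a median of 0.22. The change was 0.35 ± 0.10 (SE, n = 10; adjusted p = 0.068 by limma), higher in 8 of 10 strains, with YPS2073 at -0.12 and YPS3395 at -0.17. ASE1 passed when either of these strains was left out, at adjusted p = 0.0411 and 0.0415. NUF2 had a mean difference of 0.23 ± 0.08 (SE, adjusted p = 0.131 by limma, n = 10) and was higher in 8 of 10 strains. Its change was 0.76 in YPS2066, 0.69 in YPS2067 and at most 0.31 elsewhere. The S phase window of YPS2067 holds 48 and 63 min alone, so its value does not compare like with like.

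The TUB2 change between these windows differed in sign between strains, with a mean change of -0.04 ± 0.20 (SE; adjusted p = 0.936). The change was 1.26 in YPS2067, 0.60 in YPS2066 and 0.51 in YPS2079. In YPS2067 the S phase window holds 48 and 63 min alone, so its value does not compare like with like. The change was -0.65 in YPS3060 and -1.34 in YPS3395, and between -0.34 and -0.03 in the other 5 strains. In YPS3395 the mitotic window includes the sample at 218 min, at -1.97 on 1 array.

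From the mitotic window to the late window (284, 301, 325 and 345 min), a comparison that shares the mitotic samples, again none of the 35 genes passed by limma. Over all genes, 11 rose (0.178%) and 3 fell (0.0486%). At an unadjusted p under 0.05, 3 of the 35 were higher, SPC98 by 0.18, SPC42 by 0.17 and BIM1 by 0.12, with adjusted p of 0.566 or more, and none was lower. At that level 3.14% of all genes were higher and 4.23% lower. The SPC42 value rests largely on YPS3137, at 0.79, where the other 9 strains ran from -0.10 to 0.25. None of the 50 related genes passed, and 2 were higher at that unadjusted level.

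A shared time course used every sample. A smooth curve, a natural spline with 7 degrees of freedom, was fitted to each strain, and the mean of the 10 curves was tested against a flat line. This test takes its error from scatter around the curves, not from the spread between strains. Of the 35 genes, 13 varied over time (37.1%), against 1801 of all genes (29.2%), so the share lies near that of the table. The median fitted range, highest minus lowest, was 0.24 among the 35 genes and 0.23 among all genes. By role, 3 of 3 tubulins, 3 of 6 pole genes, 3 of 5 genes of the NDC80 group, 2 of 4 motors and 2 of 5 microtubule-associated proteins passed, and none of 3 MIND, 6 inner kinetochore and COMA or 3 DASH genes did.

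Fitted peaks of these 13 genes ran from 111 to 301 min. For reference, RNR1 and POL30, genes of DNA precursor synthesis and replication, peaked at 63 min, the histone genes HTA1, HTB1 and HHF1 at 111 min, and SWI5, a transcription factor of late mitosis, at 176 min. Peaks at 111 min were fitted for SPC98, SPC110, SPC105, TUB3, CIN8 and SPC42. TUB2 and STU2 peaked at 135 min, TUB1 at 152 min, NUF2 at 176 min, and ASE1 and KIP2 at 194 min. SPC24, an NDC80 complex subunit, peaked at 301 min. These peaks are maxima of a mean curve and carry no error of their own. Fitted to single strains, the peaks of these genes lay far apart. They ran from 48 to 345 min for CIN8 and from 0 to 345 min for SPC42 and SPC110. For TUB2 they ran from 111 to 345 min, and for KIP2 from 87 to 301 min. YPS2060 and YPS2067 have no sample at 111 min. The mitotic cyclin gene CLB2 was highest at 345 min and the G1 cyclin gene CLN2 at 260 min, late in the sampling, and CDC20 did not vary past the threshold.

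TUB2 had the widest shared curve of the 35 genes, with a fitted range of 1.24 (adjusted p = 2.16e-12 by limma). Its mean over strains was -0.80 ± 0.46 (SD, n = 10) at 0 min and -0.90 ± 0.33 (n = 10) at 24 min. It reached 0.37 ± 0.42 (SD, n = 8) at 111 min, stood at -0.25 ± 0.82 (n = 10) at 218 min and ended at 0.16 ± 0.45 (n = 10) at 345 min. The spread between strains was thus widest at 218 min among these times. TUB1 followed at a range of 0.76 (adjusted p = 6.42e-09), from -1.07 ± 0.34 (SD, n = 10) at 24 min to -0.17 ± 0.26 (n = 10) at 135 min. The range of TUB3 was 0.29 (adjusted p = 0.00088).

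ASE1 ranged over 0.57 (adjusted p = 4.45e-09 by limma), from -0.46 ± 0.37 (SD, n = 10) at 24 min to 0.29 ± 0.28 (n = 10) at 176 min. NUF2 ranged over 0.46 (adjusted p = 5.47e-10), from -0.39 ± 0.26 (SD, n = 10) at 24 min to 0.28 ± 0.24 (n = 10) at 176 min. Both genes therefore stood highest at 176 min among the means of the strains. STU2 ranged over 0.48 (adjusted p = 3.51e-09) and SPC98 over 0.46 (adjusted p = 1.45e-05). The other 7 of the 13 ranged from 0.22 for SPC24 to 0.38 for SPC110, and 3 of them lay near the threshold: CIN8, SPC24 and SPC42, with adjusted p of 0.0413, 0.045 and 0.0476.

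**Figure D3:**
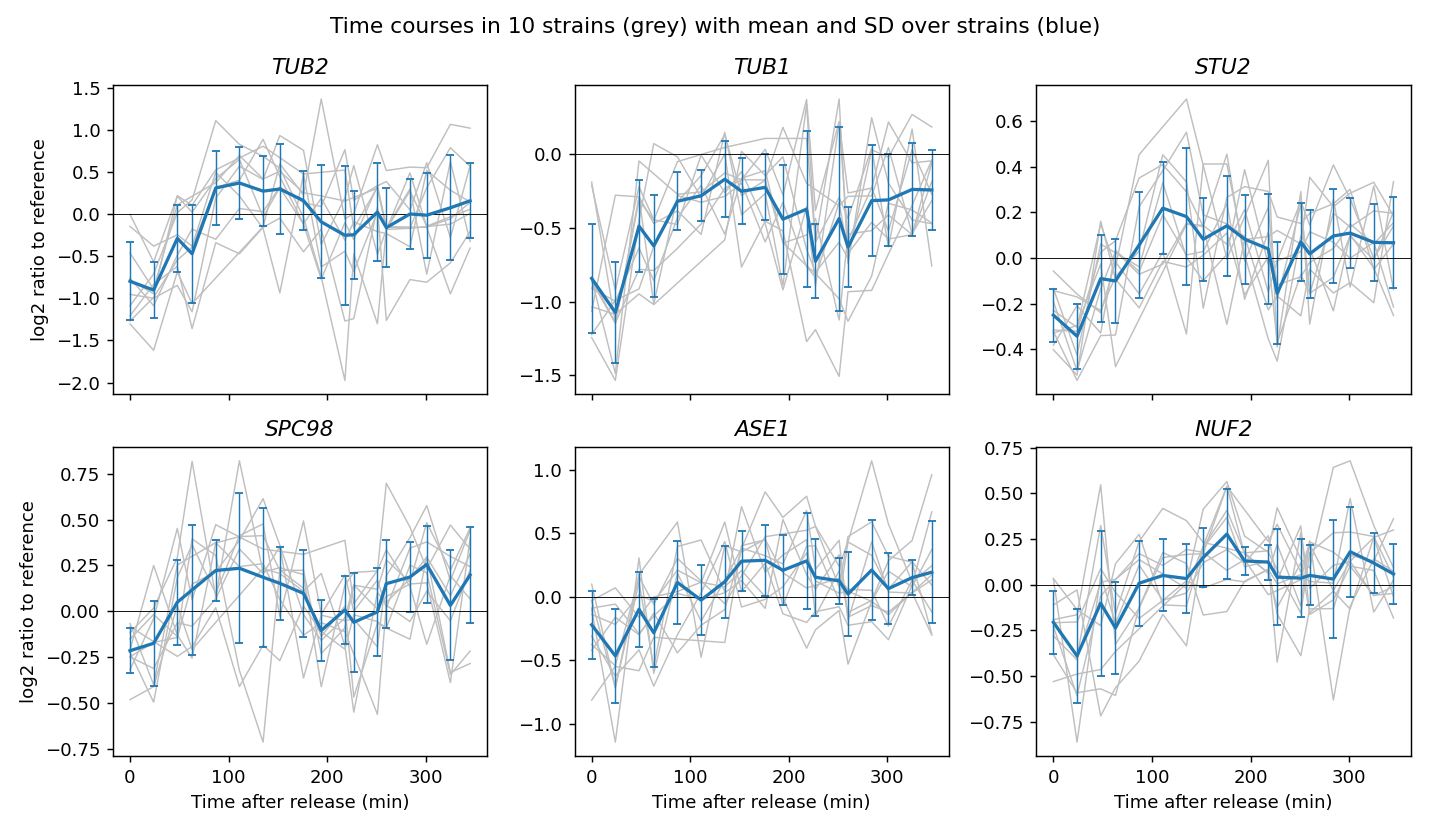
Log2 ratio against time after release (min) for 6 genes, with 1 grey line per strain and the mean and SD over strains in blue. Mean TUB2, TUB1 and STU2 are lowest at 24 min and highest at 111 or 135 min, while ASE1 and NUF2 are highest at 176 min.

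At 0 min, in the arrest, STU2, ASE1 and TUB3 lay below their own strain's median in 10 of 10 strains, and TUB2, SPC98, SPC42, SPC110, NUF2, SPC24, CIN8, TUB4, SPC97 and BIK1 in 9 of 10. These 13 are 37.1% of the 35 genes, and 7.45% of all genes lay below the median in 9 or 10 strains. The value at 0 min was seldom the lowest of a course, being so for SPC110 in 5 strains and for SPC24 in 4. CTF19, AME1, SPC25 and SPC72 lay below the median in 3, 4, 4 and 4 strains.

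Of the 50 related genes, 4 varied in the shared course (8%), a smaller share than the 29.2% of all genes. ESP1 varied over 0.59 with a peak at 135 min, and NUM1, the cortical anchor of dynein, over 0.38 at 301 min. NDC1, which inserts the pole in the nuclear envelope, varied over 0.32 at 87 min, and PAC1, a dynein partner, over 0.25 at 227 min. The adjusted p of these 4 genes ran from 1.7e-07 for ESP1 to 0.037 for NDC1 by limma.

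Across all samples, with each strain's mean removed, Pearson's r was highest for TUB1 with TUB2, at 0.76 (Spearman 0.75). ASE1 with NUF2 followed at 0.67 (Spearman 0.61), then STU2 with SPC98 at 0.54, KIP2 with ASE1 at 0.52 and STU2 with TUB2 at 0.51. The median over the 595 pairs was 0.07 and 5 pairs exceeded 0.5. Samples share the reference RNA and a pair of genes shares its arrays, so these values describe the data and were not tested.

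Within single strains a call required an adjusted p below 0.05 and a fitted range of at least 1, and 11 pairs of gene and strain met it. TUB2 was called in 4 strains, TUB1, ASE1 and NUF2 in 2 each and SPC42 in 1. By strain the calls numbered 4 of 35 in YPS2067 (11.4%, where 8.3% of all genes were called), 3 in YPS2066 (8.57% against 6.84%), 2 in YPS3395 (5.71% against 5.12%), and 1 each in YPS2055 (2.86% against 3.45%) and YPS3137 (2.86% against 1.56%). No gene of the 35 was called in YPS183, YPS2060, YPS2073, YPS2079 or YPS3060, where 3.05%, 0.146%, 5.9%, 0.518% and 1.33% of all genes were. At an unadjusted p under 0.05, between 4 and 6 of the 35 varied in each of these 5 strains, 13.1% of the pairs, against 12.4% of pairs over all genes. By adjusted p alone the pairs numbered 15, where 4.61% of pairs over all genes passed.

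The widest fitted range of TUB2 was 2.62, in YPS2067 (adjusted p = 2.24e-06 by limma). There the ratio was -1.30 at 0 min and -1.62 at 24 min, still -1.06 at 63 min, 0.60 at 152 min and 1.37 at 194 min. It stood at -0.06 at 218 min and ended at 1.07 and 1.02 at 325 and 345 min. In YPS3395 the range was 2.22 (adjusted p = 1.23e-06), but the course was another one. TUB2 went there from -1.09 at 0 min to 1.11 at 87 min. It stood at -1.97 at 218 min, a sample on 1 array, and at -1.30 at 251 min. The set B samples beside these were higher, at -0.75 at 194 min, -0.47 at 227 min and -0.18 at 260 min. TUB2 was at 0.79 again at 325 min. In YPS2055 it went from -1.27 at 0 min to 0.89 at 135 min (range 1.87, adjusted p = 0.0158, and 0.189 under quantile normalization). In YPS2066 it went from -1.16 at 63 min, a sample on 1 array, to 0.93 at 152 min (range 1.82, adjusted p = 0.00232). The lowest fitted range of TUB2 in any strain was 0.82.

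**Figure D4:**
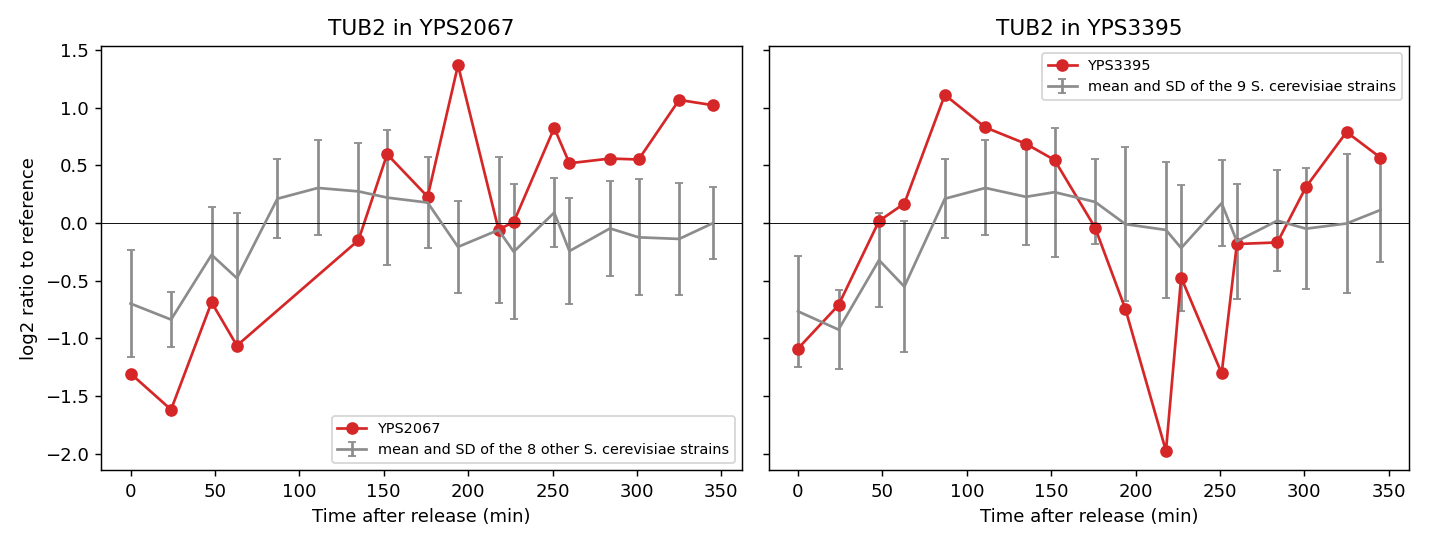
TUB2 log2 ratio against time after release (min) in YPS2067 and in YPS3395 (red, 1 sample per point), each with the mean and SD of S. cerevisiae strains (grey; YPS2067 itself left out on the left). YPS2067 lies at -0.69 or lower to 63 min and at 0.52 or higher from 251 min, with no sample at 87 or 111 min. YPS3395 reaches 1.11 at 87 min and -1.97 at 218 min, a sample on 1 array.

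Whether a course differs in shape between strains was tested as the difference between a strain's curve and the average curve of the remaining S. cerevisiae strains, after removing the level. With a largest deviation of at least 1 required, 2 pairs were called, both TUB2, against 0.912% of pairs over all genes. In YPS3395 the curve deviated by -1.16 at 218 min (adjusted p = 0.000225 by limma), where the sample lies on 1 array. In that strain 1.78% of all genes were called. In YPS2067 the TUB2 curve deviated by -1.06 at 63 min (adjusted p = 0.00672 by limma), with 1.39% of all genes called. This call was lost under quantile normalization (adjusted p = 0.174), and that strain has no sample at 87 or 111 min. By adjusted p alone 4 more pairs passed. TUB1 in YPS3395 deviated by 0.65 at 87 min (adjusted p = 0.0327), where its ratio was -0.02 after -1.53 at 24 min. NUF2 in YPS2066 deviated by 0.55 at 301 min (adjusted p = 0.0135). ASE1 and CTF19 in YPS2073 deviated by 0.59 at 345 min and by 0.58 at 218 min (adjusted p = 0.0338 and 0.00568). The largest deviation of TUB1 was -0.91 under quantile normalization, and those of NUF2 and ASE1 were -0.50 and -0.45 with 5 degrees of freedom. The curves are centred, so a largest deviation can change sign by falling at another time. Its sign gives no direction for the whole course. NUF2 and ASE1 did not pass under quantile normalization (adjusted p = 0.0833 and 0.109). The CTF19 value rests on 1 sample at 1.26, and its other 17 samples in that strain lay at or below 0.24; CTF19 overlaps IRC15 on the other strand. The shares of all genes past the adjusted p alone were 9.06% for YPS2073, 4.33% for YPS3395, 3.24% for YPS2067 and 2.07% for YPS2066.

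NUF2 and ASE1 varied past the threshold in YPS2066 and YPS2067. NUF2 in YPS2066 was -0.11 at 0 min, -0.72 at 48 min and -0.33 at 135 min, then 0.41 at 176 min and 0.68 at 301 min (range 1.21, adjusted p = 1.61e-05 by limma). ASE1 there lay between -0.44 and -0.10 through 135 min, and at 0.83 at 176 min and 1.07 at 284 min (range 1.13, adjusted p = 0.000292). The YPS2066 samples at 24, 63, 135 and 251 min lie on 1 array each. In YPS2067 ASE1 went from -0.81 at 0 min to 0.45 at 176 min, and NUF2 from -0.53 to 0.57 over the same times, with ranges of 1.18 and 1.05. Of these 4 courses, NUF2 in YPS2066 was the one that differed in shape from the other strains by adjusted p alone. The sign of its largest deviation depended on the spline.

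The level of each gene in each S. cerevisiae strain, averaged over the 12 times sampled in all strains, was compared with the mean of the other 8. Of these times only 24, 260, 301 and 345 min belong to set B, so the level weighs set A more. A call needed an adjusted p below 0.05 and a size of at least 1. The 1 call was DAM1 in YPS3137, at 1.04 ± 0.14 (SE; adjusted p = 6.08e-09 by limma), where 1.83% of all genes were called and 1.22% of pairs over all strains. DAM1 belongs to the ring complex that couples kinetochores to shortening microtubules. Its 9 set A samples there had a lowest value of 0.18, a median of 1.25 and a highest of 4.72, at 325 min, whereas its 7 set B samples ran from -0.33 through 0.09 to 0.24. Fitted apart, the sets gave 1.78 and 0.03. Set A samples of this strain include older prints and set B samples lie on 2007 prints, so print and sampling set move with this value. The lowest set A value, 0.18 at 0 min, comes from 4 arrays of which 2 are older. DAM1 reached at most 0.73 in YPS3060, whose set A samples also include older prints, and 0.34 in YPS2073. The parts of print and sampling set were not tested.

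**Figure D5:**
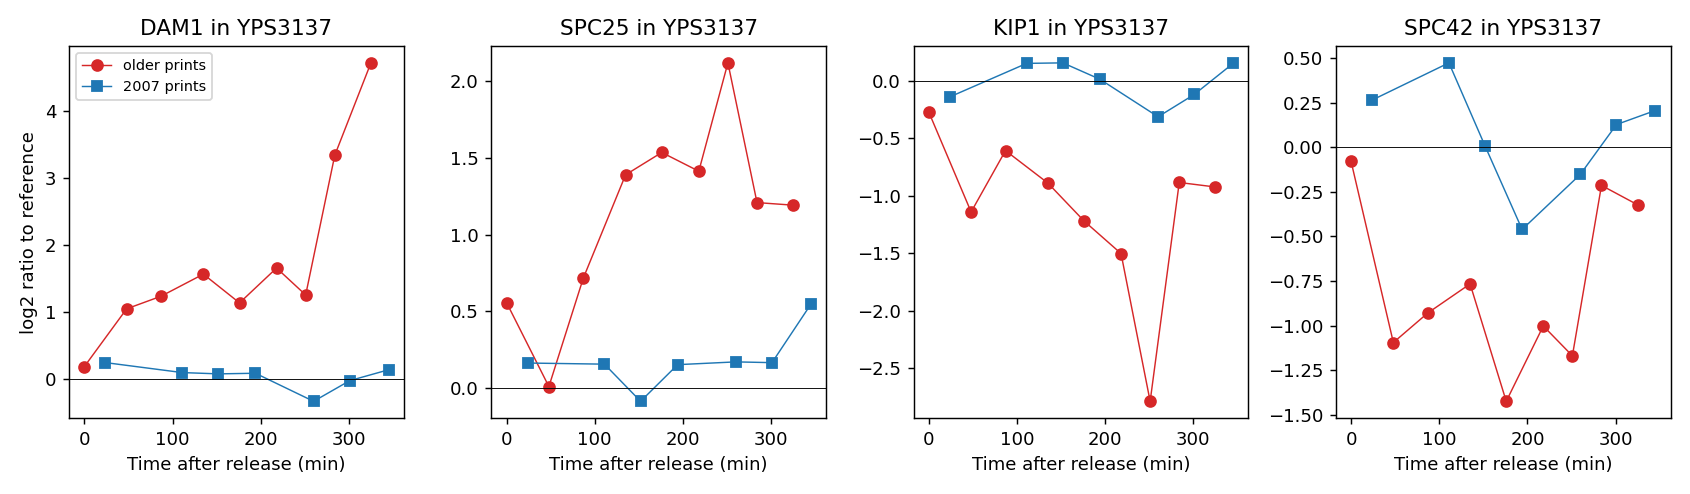
Log2 ratio against time after release (min) for DAM1, SPC25, KIP1 and SPC42 in YPS3137 (1 sample per point). Set A samples, which include older prints, are red and set B samples on 2007 prints are blue. The blue points stay between -0.46 and 0.55 in all 4 panels, and the red points of DAM1 reach 4.72.

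The same split held for other genes of that strain. By adjusted p alone 12 of 35 genes differed in level in YPS3137 (34.3%, against 32.7% of all genes), 5 higher and 7 lower. In set A alone 10 of these passed in the same direction, and in set B alone none did. SPC25, an NDC80 complex subunit, stood 0.57 higher (0.99 in set A and 0.18 in set B). KIP1 stood at -0.68 (-1.11 and -0.13) and SPC42 at -0.47 (-0.87 and -0.006). The call of SPC42 as varying over time in YPS3137, lost under quantile normalization (adjusted p = 0.12), uses the same samples, with set A between -1.43 and -0.08 and set B between -0.46 and 0.47.

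Elsewhere the level differences were smaller than 1, and by adjusted p alone they were no more frequent than over all genes: 8 of 35 in YPS2073 (22.9% against 32.9% of all genes), 5 in YPS183 (14.3% against 31.6%), 4 in YPS3060 (11.4% against 13.2%), 2 each in YPS2055 and YPS2066 (5.71% against 8.13% and 15.3%), 1 in YPS2060 (2.86% against 6.24%) and none in YPS2067 or YPS2079 (7.58% and 11.8% of all genes). A pair passed in both sampling sets fitted apart in 2 cases. TUB2 in YPS183 stood at -0.61 ± 0.11 (SE; adjusted p = 1.9e-06 by limma), and at -0.63 and -0.64 in the 2 sets. Its 18 values there ran from -1.36 through -0.60 to 0.08, overlapping those of every other strain. CIN8 in YPS2073 stood at -0.36 ± 0.06 (SE; adjusted p = 1.3e-06), and at -0.24 and -0.58 in the 2 sets, but 17 of the 18 samples of that strain lie on older prints, so print and strain cannot be told apart there.

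For the S. paradoxus strain YPS3395, a single mean per gene over the shared times was set against the means of the 9 strains of S. cerevisiae. None of the 35 genes passed, against 150 of all genes (2.43%). The lowest adjusted p was 0.191, for SPC97 at -0.21 (-0.07 in YPS3395 against 0.14 ± 0.05, SD, n = 9, by limma). At an unadjusted p under 0.05, 3 genes were lower: TUB1 at -0.37, MCM21 at -0.23 and SPC97 (8.57%, against 7.97% of all genes). The mean of YPS3395 lay outside the range of the 9 strains for 10 of the 35 genes (28.6%) and for 32.8% of all genes. Sequence differences between the species under the probes were not analysed here.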

How the data were processed

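RNA of the samples of 10 strains was measured on 377 2-colour arrays, 1 to 5 per sample. The deposited log2 values (base assumed, not stated) are 1 column of log ratios per sample, made by the authors from dye-swapped GenePix arrays, per the labels. How arrays were normalized and combined is not stated in those labels. Sample medians ran from -0.066 to 0.039 and no value was missing. A further 7 columns matched no sample and were not used. Of 6172 identifiers, 5746 were named through the RefSeq table of assembly R64. Precision is limited by array number, with 132 samples on 2 arrays, 33 on more and 8 on 1. Signals against background were not analysed here.

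All tests were run in limma (3.58.1, under R 4.3.3), and p-values were adjusted by Benjamini-Hochberg over all genes. Windows averaged sets A and B with equal weight and gave 1 difference per strain. Spline fits (7 degrees of freedom per strain) shared 1 residual spread over strains. The steps were run on simulated data with independent noise and no effect of sampling set or print. That run cannot show how sampling set or print bears on the results. Genes given in detail were those past the threshold in a window comparison or the shared course, and every call of level, shape or S. paradoxus level. Of the related genes, at most the 4 with the largest called change per direction were to be named in each window comparison. The genes, lists and windows were chosen with earlier results of these data known. Alternatives were leaving out strains, sampling set, print year, spline, weights, quantile normalization, extreme values and the deposited series matrix. A planned count of promoter motifs was not run and no sequence is shown, since none was given here.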

Additional observations from a re-analysis of the deposited data

Results flagged for a closer look

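A strain was set apart where its gap to the nearest other strain was a large share of the range of all 10 (above 0.466, Dixon's critical value). Of 52 sets of strain values examined for the 13 genes given in detail, 7 had such a strain, where chance gives about 1 in 20 for independent sets. These sets are not independent, since they share samples. The count was not made over all genes, so it does not set these genes apart. From early release to S phase, the difference of SPC42 was -0.36 in YPS3137 and that of NUF2 -0.40 in YPS2066, each far below the other 9 strains. The YPS2066 samples at 24 and 63 min, which enter that NUF2 value, lie on 1 array each. From the mitotic to the late window the difference of SPC42 was 0.79 in YPS3137, far above the others. In mean level over the shared times, CIN8 was lowest in YPS2073 at -0.24, TUB2 lowest in YPS183 at -0.67, SPC42 lowest in YPS3137 at -0.47 and SPC110 highest in YPS2073 at 0.35. Samples that include older prints make up 9 of 16 in YPS3137, 17 of 18 in YPS2073 and 5 of 18 in YPS183, and none in YPS2066. The part of the prints in these values was not tested.

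Time courses that differed from the average of the remaining S. cerevisiae strains by adjusted p alone are also listed, with their largest deviation. TUB2 deviated by -1.16 in YPS3395 and by -1.06 in YPS2067. TUB1 deviated by 0.65 in YPS3395, NUF2 by 0.55 in YPS2066, and ASE1 by 0.59 and CTF19 by 0.58 in YPS2073.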

How the results depend on the processing

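The number of the 35 genes that rose from early release to S phase, 6, was 2 with set A times alone and 1 with set B times alone. Over all genes, set B called 13 higher and 17 lower. Leaving out 1 strain gave 4 to 8. TUB2 passed this comparison under every alternative run. For the mitotic window against S phase, leaving out 1 strain gave 0 to 1 gene higher (ASE1, without YPS2073 or without YPS3395). The 9 S. cerevisiae strains gave 1 (ASE1) and 2007 prints alone 2 (ASE1 and OKP1). Leaving out YPS2073, YPS3060 and YPS3137, an alternative chosen after seeing the data, gave 1 higher (ASE1) and 2 lower (SLK19 and SPC42). Late against mitotic gave 0 in each direction under every alternative run.

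A term for the sampling set moved the pairs called as varying within a strain from 11 to 21, and those over all genes from 2234 to 4139. The other alternatives gave 11 to 16. Pairs differing in shape, 2, were 4 with the set term, 1 on 2007 prints alone (7 strains), 1 with 5 degrees of freedom and 6 by adjusted p alone, a rule added after seeing the data. Pairs differing in level, 1, were 0 with the set term, 0 on 2007 prints alone (which leaves out YPS3137), 2 in set A alone, 0 in set B alone and 34 by adjusted p alone. Strain by strain, these 34 were a smaller share of the 35 genes than of all genes, except in YPS3137 (34.3% against 32.7%).

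Single values turned sign in 6 cases. The level of CIN8 in YPS183 was -0.045 in set A, that of KIP1 in YPS3060 0.0065 in set B, and that of BIM1 in YPS3137 -0.034 in set B. The largest deviation in shape was -0.45 for ASE1 in YPS2073 and -0.50 for NUF2 in YPS2066 with 5 degrees of freedom, and -0.91 for TUB1 in YPS3395 under quantile normalization. Under quantile normalization TUB2 in YPS2055 and SPC42 in YPS3137 no longer varied past the threshold, nor did the TUB2 shape in YPS2067 (adjusted p = 0.174). The shared course of CIN8 was lost with array weights (adjusted p = 0.0513). The cause was not tested. Fitted shared peaks moved most for TUB1 (345 min with the set term), CIN8 (345 min on 2007 prints) and SPC42 (301 min with 5 degrees of freedom). Window comparisons were paired within strain, with 1 difference per strain. No further pairing was possible because the labels give no replicate numbers.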

Other observations

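Among the 50 related genes, 7 pairs of gene and strain varied over time within a strain with a fitted range of at least 1. In YPS2067 these were NUM1 (1.25) and DYN1 (1.37), which act in dynein-driven spindle positioning, NDC1 (1.09) and ESP1 (1.10), against 8.3% of all genes called. In YPS2066 they were NDC1 (1.08) and PDS1 (1.08), the separase inhibitor, both with a fitted peak at 135 min, against 6.84% of all genes. In YPS183 the checkpoint kinase gene BUB1 varied over 2.41 with its fitted peak at 0 min, against 3.05% of all genes.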
